A study of Mus musculus with 6 samples.

Results

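The genes described here encode proteins of the junctions and the surface of blood vessel endothelium: Cdh5, Pecam1, Cldn5, Esam, Emcn, Cd34, Robo4, Ramp2, Plvap and Eng. They were chosen by name, as all non-control probes of the arrays named after one of them. This gave 12 probes for 10 genes, out of 41174 probes for 27573 genes or unresolved names. For 11 probes the array files print the gene's present name, and the probe of Esam is printed as Esam1, which RefSeq lists as an older name of the same gene.

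The samples were 6 tumors grown in female C57Bl/6 mice from Hepa1-6, a mouse hepatoma cell line, placed under the skin. Tumors 303, 313 and 318 were taken at day 15 after inoculation (n = 3), and tumors 302, 307 and 312 at day 10 (n = 3). Each tumor RNA, labelled with Cy5, shared an array with reference RNA labelled with Cy3, described as total RNA of blood from a C57Bl/6 mouse without treatment. The host animals carried no engineered allele by the labels, and their age is not given. All values below are log2 ratios of tumor over reference unless a dye is named. Tumor tissue was analysed in bulk, so fewer cells of a type and less RNA per cell cannot be told apart. The labels do not tie tumors to separate cages or cultures, and p-values measure the spread between these tumors.

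Endothelial cells line all blood vessels, and a subcutaneous tumor receives them from its host. Neighbouring endothelial cells are held together by adherens junctions, built on VE-cadherin, and by tight junctions, in which claudin-5 limits the passage of small molecules. The surface that faces the blood carries sialomucins that modulate leukocyte adhesion, together with receptors and co-receptors for guidance cues, vasoactive peptides and ligands of the BMP and TGF-beta family. Several of these genes are also used outside blood endothelium: Pecam1 and Esam in platelets and some leukocytes, and Cd34 in blood progenitors and some stromal cells.

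Promoter sequences, the 250 bases before the start of the gene, were at hand in RefSeq (GRCm38.p6) for 5 of the 10 genes. Those of Cldn5, Emcn and Robo4 are printed because these were, among the 5, the genes with the largest difference between the days. Capitals mark GGAA, the core of the sites that ETS family factors bind, on either strand, so that TTCC marks the core on the other strand. The sequences run 5′ to 3′ on the plus strand, at chr16:18776597-18776846 for Cldn5, chr3:137340828-137341077 for Emcn and chr9:37401722-37401971 for Robo4.
Cldn5: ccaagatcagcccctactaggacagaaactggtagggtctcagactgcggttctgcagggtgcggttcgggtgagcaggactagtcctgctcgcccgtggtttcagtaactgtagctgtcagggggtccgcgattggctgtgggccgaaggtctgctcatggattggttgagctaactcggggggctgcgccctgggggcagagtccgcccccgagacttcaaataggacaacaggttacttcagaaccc
Emcn: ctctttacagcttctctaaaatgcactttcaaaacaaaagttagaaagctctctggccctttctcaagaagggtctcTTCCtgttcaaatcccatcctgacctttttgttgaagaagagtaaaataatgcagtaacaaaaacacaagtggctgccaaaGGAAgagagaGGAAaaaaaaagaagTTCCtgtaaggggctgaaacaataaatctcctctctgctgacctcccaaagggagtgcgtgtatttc
Robo4: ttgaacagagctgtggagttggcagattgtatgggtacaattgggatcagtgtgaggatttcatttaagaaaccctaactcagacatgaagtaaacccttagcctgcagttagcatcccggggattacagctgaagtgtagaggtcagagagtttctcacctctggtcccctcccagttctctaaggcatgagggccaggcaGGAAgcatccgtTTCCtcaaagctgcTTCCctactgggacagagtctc
The window of Cldn5 held 0 GGAA matches, as did 6.55% of 32851 RefSeq promoters of that length. The window of Emcn held 4 matches, a number reached by 33.4% of the promoters, and 2 of them lay in the longer word AGGAAG, reached by 6.25%. Robo4 held 3 matches, all in the last 100 bases before the start, while 54.7% of the promoters held as many anywhere in the window. The corresponding windows of Cd34 and Eng held 5 and 3 matches (as many in 18.0% and 54.7% of the promoters). CACCC, the core of KLF family sites, occurred on either strand 4 times in the window of Eng (as many in 2.14% of the promoters), 2 times in that of Cldn5 (21.1%) and 0 times in those of Emcn, Cd34 and Robo4. Matches of 4 to 6 letters are common in such windows, and these counts describe letters and not bound sites.

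The first comparison asked which of these genes tumor tissue expressed above the reference RNA. Of the 10 genes, 9 were higher in tumor, and 1, Esam, had a mean ratio under the size needed for a call. A call required a Benjamini-Hochberg adjusted p from limma under 0.05 and an absolute log2 ratio of at least 1. Over all 16321 genes tested, 25.5% were called higher by that rule and 9.76% lower. The median ratio of the 10 genes was 4.32, beside 0.22 over all genes tested. Blood cell markers were called higher too, 3 of 4 erythroid, 6 of 7 leukocyte and 12 of 12 macrophage and monocyte genes tested. Their median ratios were 3.28, 4.24 and 4.58, and 0 of them were called lower. Of 6 platelet and megakaryocyte genes tested, 2 were higher and 1 lower. Which cells the reference RNA, labelled as blood, represented was not tested. In Cy5 all 10 genes were well above background on all 6 arrays, so markers of blood endothelium were present in every tumor.

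**Figure D1:**
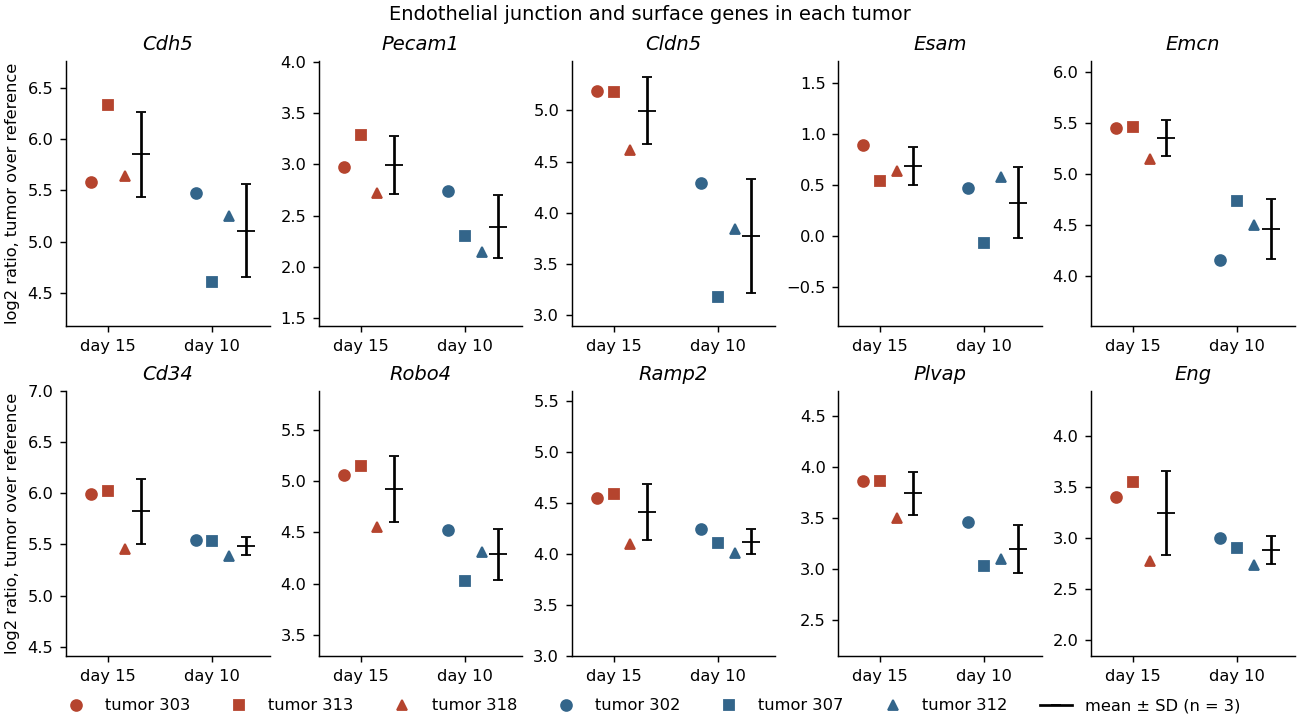
The log2 ratio of tumor over reference is plotted for each of the 10 genes, with 1 point per tumor, day 15 left of day 10 and a bar for each day's mean ± SD (n = 3), all panels spanning equal lengths of their axes. The points of the days are apart for Cdh5, Cldn5, Emcn, Robo4 and Plvap.

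Among the junction genes, Cdh5, which encodes VE-cadherin, the adhesion molecule of endothelial adherens junctions, had ratios of 5.58, 6.34 and 5.65 in day 15 tumors 303, 313 and 318, against 5.48, 4.60 and 5.25 in day 10 tumors 302, 307 and 312. Every day 15 tumor lay above every day 10 tumor, the nearest being 303 and 302. In Cy3 neither probe of Cdh5 was well above background on any array, so that its level was at least 36.1-fold higher in tumor (limma adjusted p 5.81e-07, measured mean ratio 5.48). The other, dimmer probe gave 2.87, 3.09 and 2.15 at day 15, against 2.37, 1.51 and 2.10 at day 10. On that probe tumor 318 lay under tumor 302, so the days overlapped, and its bound was at least 4.76-fold.

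Cldn5, the claudin of endothelial tight junctions, had ratios of 5.19, 5.18 and 4.62 in day 15 tumors 303, 313 and 318, against 4.29, 3.18 and 3.84 in day 10 tumors 302, 307 and 312. The days did not overlap, and tumor 307 was the lowest of the 6. Its mean over all tumors was 4.38 ± 0.79 (SD, n = 6), a 20.8-fold difference from the reference, with Cy3 signal well above background on 5 of 6 arrays. The limma adjusted p was 1.85e-06.

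Pecam1 encodes CD31, an adhesion molecule of endothelial borders, platelets and leukocytes. Its ratios were 2.97, 3.29 and 2.72 in day 15 tumors 303, 313 and 318, against 2.74, 2.30 and 2.14 in day 10 tumors 302, 307 and 312. The days overlapped, since tumor 318 lay just under tumor 302. The mean was 2.69 ± 0.42 (SD, n = 6), or 6.47-fold (limma adjusted p 3.61e-06), with Cy3 above background on 5 arrays. The probe was printed 10 times per array, and the SD between its spots was 0.07 on the array of tumor 307 and 0.40 on that of tumor 312. On the array of 312, 2 of the spots lay in an area of lost signal, and without them the ratio there was 2.28 in place of 2.14. A further probe printed as Pecam1 was above background in neither dye on any array, its accession belonging to a clone described as a disintegrin and metalloprotease gene, and it was not tested.

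Esam, an immunoglobulin-family adhesion molecule of endothelial tight junctions and platelets, had the lowest ratio of the 10 genes. It had 0.89, 0.53 and 0.63 in day 15 tumors 303, 313 and 318, against 0.47, -0.07 and 0.57 in day 10 tumors 302, 307 and 312. The days overlapped through tumor 313, which lay under tumor 312. The mean of 0.50 ± 0.32 (SD, n = 6; 95% interval 0.25 to 0.76) was a 1.42-fold difference (limma adjusted p 0.00427). With the scanner's processed signals and with the authors' value table the mean was 0.19 (limma adjusted p 0.157 and 0.158). After median centring without loess, it was -0.31 (limma adjusted p 0.0287), so that the size and direction for Esam depended on the normalization, and that setting moved the median over all genes from 0.22 to -0.34. Its Cy3 signal was far above background, at 2914, 2925 and 3063 on the day 15 arrays, against 2886, 2916 and 3855 on the day 10 arrays. Its Cy5 signal was 5409, 4233 and 4745 in day 15 tumors, against 3995, 2776 and 5726 in day 10 tumors. On this probe the dyes lay closer together in every tumor than on the tested probes of any other of the 10 genes, with ratios from -0.07 to 0.89.

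Cd34 encodes a sialomucin that endothelial cells share with blood progenitors. It had ratios of 5.99, 6.03 and 5.46 in day 15 tumors 303, 313 and 318, against 5.54, 5.53 and 5.39 in day 10 tumors 302, 307 and 312. Tumor 318 lay within the range of the day 10 tumors. The mean was 5.66 ± 0.28 (SD, n = 6), or 50.4-fold (limma adjusted p 1.48e-07), and 0.582% of all genes tested had a higher ratio. Emcn encodes endomucin, a sialomucin of capillary and venous endothelium. It had 5.45, 5.46 and 5.15 in day 15 tumors 303, 313 and 318, against 4.15, 4.73 and 4.50 in day 10 tumors 302, 307 and 312. All day 15 tumors lay above all day 10 tumors, here with 302 the lowest. The mean was 4.91 ± 0.53 (SD, n = 6), or 30.0-fold (limma adjusted p 1.96e-07), with Cy3 above background on 4 of 6 arrays.

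Among the receptor genes, Robo4, a Roundabout family receptor of endothelium that binds UNC5B, had ratios of 5.06, 5.15 and 4.55 in day 15 tumors 303, 313 and 318, against 4.52, 4.03 and 4.31 in day 10 tumors 302, 307 and 312. The days did not overlap, with tumors 318 and 302 next to each other. The mean was 4.60 ± 0.43 (SD, n = 6), or 24.3-fold (limma adjusted p 3.6e-07).

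Ramp2, which joins the calcitonin receptor-like receptor to form an adrenomedullin receptor, had 4.55, 4.59 and 4.10 in day 15 tumors 303, 313 and 318, against 4.24, 4.11 and 4.0 in day 10 tumors 302, 307 and 312. The days overlapped through tumor 318. The mean was 4.26 ± 0.25 (SD, n = 6), or 19.2-fold (limma adjusted p 2.32e-07).

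Eng encodes endoglin, a co-receptor for BMP9 and BMP10. Its ratios were 3.40, 3.54 and 2.77 in day 15 tumors 303, 313 and 318, against 3.0, 2.90 and 2.73 in day 10 tumors 302, 307 and 312. Tumor 318 again lay among the day 10 tumors. The mean was 3.06 ± 0.34 (SD, n = 6), or 8.33-fold (limma adjusted p 2.26e-06).

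Plvap forms the diaphragms of endothelial caveolae and fenestrae. It had 3.86, 3.86 and 3.50 in day 15 tumors 303, 313 and 318, against 3.46, 3.03 and 3.1 in day 10 tumors 302, 307 and 312. The days were apart by the narrow gap between tumors 318 and 302. The mean was 3.47 ± 0.36 (SD, n = 6), or 11.1-fold (limma adjusted p 5.16e-07).

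**Figure D2:**
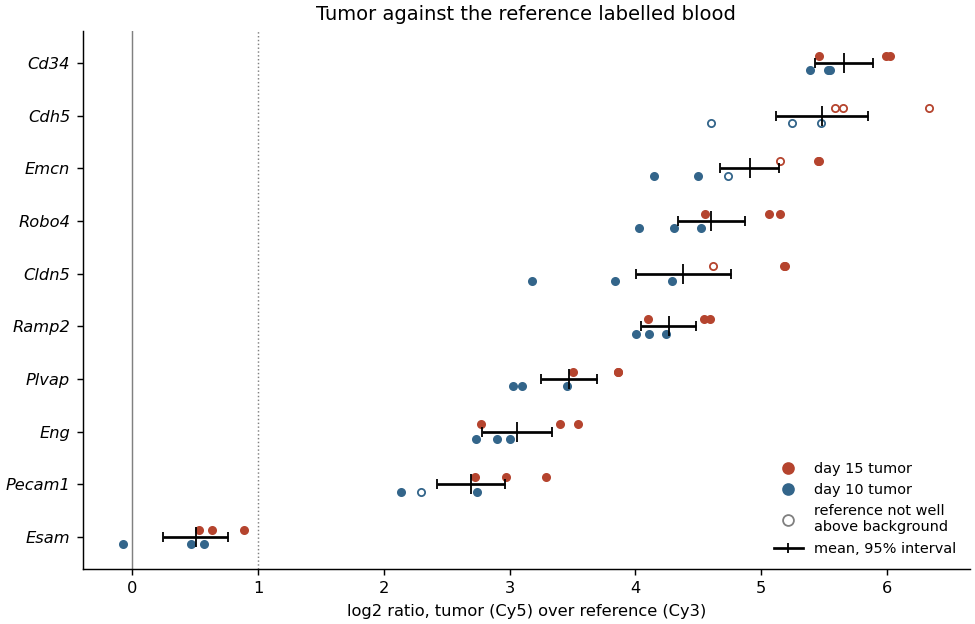
The log2 ratio of tumor over reference is plotted on the horizontal axis for each tumor, day 15 above day 10, with the mean over 6 tumors and its 95% interval, and open points where the reference signal was not well above background. Of the 10 genes, 9 have a mean beyond the dotted line at 1, and Esam has a mean of 0.50.

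The second comparison asked how these genes differed between day 15 and day 10 of growth. All 10 genes had a mean ratio above 0 for day 15 minus day 10, as did 54.9% of the 15801 genes tested. After Benjamini-Hochberg adjustment over all probes, 0 of the 10 passed the limma threshold, with adjusted p from 0.765 to 1.0. Over all genes, 0.057% passed it in either direction and 0.0127% as higher at day 15. At an unadjusted limma p under 0.05, 6 of the 10 were higher at day 15, namely Cdh5, Pecam1, Cldn5, Emcn, Robo4 and Plvap, against 2.44% of all genes. In 5 of the 10 all day 15 tumors lay above all day 10 tumors, against 5.06% of all genes. The median difference of the 10 genes was 0.57, beside 0.02 over all genes tested. The 10 genes are measured in the same 6 tumors and are not independent of each other.

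Cldn5 had the largest difference, with means of 5.0 ± 0.33 at day 15 and 3.77 ± 0.56 at day 10 (SD, n = 3 each), a difference of 1.23 (SE 0.32, 95% interval 0.46 to 1.99). Its unadjusted limma p was 0.00717 and its adjusted p 0.934. Emcn followed with 5.35 ± 0.18 at day 15 and 4.46 ± 0.29 at day 10 (SD, n = 3 each), a difference of 0.89 (SE 0.20, 95% interval 0.42 to 1.36, limma p 0.00329, adjusted 0.765). Both differences exceeded the spread between tumors of a day on their own scale, and neither passed the adjustment over all probes. Cdh5 averaged 5.85 ± 0.42 at day 15 and 5.11 ± 0.45 at day 10, a difference of 0.75 (95% interval 0.02 to 1.48), and its dimmer probe gave 0.71 (95% interval -0.07 to 1.49). Since the Cy3 signal of both probes was not above background, these sizes are less secure, and in Cy5 alone Cdh5 differed by 0.67 (limma p 0.191). The remaining genes past the unadjusted threshold were Robo4 with 0.64 (95% interval 0.11 to 1.17), Pecam1 with 0.60 (0.06 to 1.15) and Plvap with 0.55 (0.10 to 0.99). For Esam the difference was 0.36 (95% interval -0.15 to 0.88), for Eng 0.36 (-0.20 to 0.91), for Cd34 0.34 (-0.12 to 0.80) and for Ramp2 0.29 (-0.14 to 0.73). These 4 intervals include 0 and also changes as large as those of Robo4 or Pecam1.

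The count of 6 genes at the unadjusted threshold depended on single tumors and on the normalization. It was 2 (Cldn5 and Emcn) without tumor 303, 313, 307 or 312 (2.59%, 2.88%, 1.27% and 1.38% of all genes), 6 without tumor 302 and 8 without tumor 318, where 8.7% of all genes passed the same threshold. After median centring without loess the median of all genes tested moved from 0.02 to -0.30, 7 of the 10 genes stayed above 0, and 2 (Cldn5 and Emcn) had an unadjusted p under 0.05, against 0.684% of all genes. Esam (-0.010), Cd34 (-0.030) and Ramp2 (-0.10) then changed sign. Relative to that moved median, the 10 genes had a median difference of 0.46, beside 0.55 relative to the median of all genes with loess. With the scanner's processed signals Emcn did not pass the unadjusted threshold, at 0.78 (SE 0.42, limma p 0.112).

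All day 15 arrays lay on 1 slide and all day 10 arrays on another, so the slide and the day cannot be told apart. Arrays at the same position of both slides could be set against each other. All 10 genes were higher in the day 15 tumor in each of the 3 pairs, with a median difference of 0.41 for tumor 303 against 302, 0.78 for 313 against 307 and 0.32 for 318 against 312. The smallest difference was 0.04, in the last of these pairs, and the largest was 2.0, in the pair of tumors 313 and 307. For Cdh5, Cldn5, Emcn, Robo4 and Plvap, whose days did not overlap, any pairing of the tumors gives this outcome. The share of all genes higher in every pair was not computed, so the count is not read as a result about these genes. Each pair still sets one slide against the other, so the pairs do not separate slide from day. With the position as a block, 5 genes had an unadjusted limma p under 0.05, against 4.22% of all genes in that fit, and 0 an adjusted one.

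The tumors with the highest and lowest ratios recurred among the genes. Tumor 313 held the highest ratio for 7 of the 10 genes and tumor 303 for 3. Tumor 307 held the lowest for 5, tumor 312 for 4 and tumor 302 for 1, while tumor 318 was at neither end for any of them. Centred on each gene's own mean, the average over the 10 genes was 0.39 in tumor 303, 0.49 in 313 and 0.01 in 318 at day 15, against -0.11 in 302, -0.47 in 307 and -0.32 in 312 at day 10. For single genes the median within-day SD was 0.28, and the error of these averages was not estimated, so no order is read between neighbours such as 313 and 303 or 318 and 302.

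The dyes were then read one at a time, on a linear signal scale after scaling between arrays. Cd34 had Cy5 signals of 172216, 175595 and 51917 in day 15 tumors 303, 313 and 318, against 80636, 93615 and 90206 in day 10 tumors 302, 307 and 312. Its Cy3 signals on the same arrays were 2702, 2696 and 1181 at day 15, against 1730, 2024 and 2156 at day 10. Tumor 318 was lowest in both dyes for Cd34, Ramp2 and Eng. The highest Cy5 signal of Cd34 was 3.38 times the lowest, while the highest Cy3 signal, of one reference RNA by the labels, was 2.29 times the lowest. For Ramp2 these spans were 3.42 and 2.5. Cldn5 differed more in the tumor channel than in the reference, with a Cy5 span of 6.07 and a Cy3 span of 1.56.

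**Figure D3:**
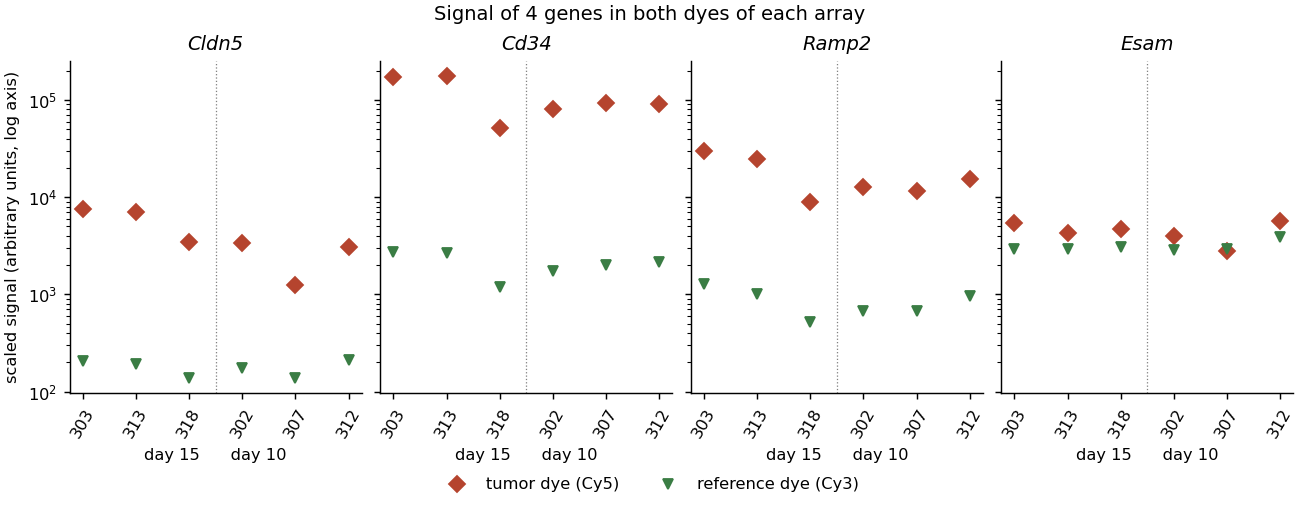
Signal of Cldn5, Cd34, Ramp2 and Esam is plotted for each array in Cy5 (tumor) and Cy3 (reference), in arbitrary units on a log axis, with day 15 tumors left of day 10 tumors. Both dyes are lowest on the array of tumor 318 for Cd34 and Ramp2, and the dyes of Esam lie closer together on every array than those of Cldn5, Cd34 and Ramp2.

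In Cy5 alone, quantile normalized, all 10 genes had a difference above 0 between the days, against 38.2% of all genes. Only Cldn5, at 1.26, had an unadjusted limma p under 0.05 (0.0333, adjusted 0.844), against 0.943% of all genes higher at day 15. The median difference of the 10 genes was 0.55, beside -0.10 over all genes, close to that of the ratios. In Cy3, 9 of the genes could be tested between the arrays of the days, Cdh5 being too dim. Of these, 0 had an unadjusted limma p under 0.05, against 1.57% of all genes in either direction, and 4 had a difference above 0. The Cy3 differences ran from -0.33 for Emcn to 0.22 for Pecam1. That of Emcn had an SE of 0.40, and in Cy5 alone Emcn differed by 0.54 (limma p 0.109) in place of 0.89 in the ratio.

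The proteins that work with these genes at the junction were read next. Of 15 genes of junction partners, 14 were tested, and Ocln, which encodes occludin, was not above background in tumor on any array. Against the reference 4 of 14 were called higher and 0 lower, with a median ratio of -0.20. Jam3, an adhesion molecule of tight junctions, had a ratio of 4.18, with its Cy3 signal above background on 2 of 6 arrays. Ptprb, which encodes the phosphatase VE-PTP that binds VE-cadherin, had 3.91. Ctnna1, the alpha-catenin of adherens junctions, had 1.28. The probe standing for Jam2 was above background in Cy3 on 0 arrays (another of its probes on 1), and its signal was at least 5.72-fold higher in tumor (measured ratio 2.86). The 10 that were not called included scaffold genes that many epithelial cells also use, such as Cgn (cingulin) at -0.73 and Vcl (vinculin) at 0.11.

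Between the days, 7 of the 14 junction partners were above 0, with a median of -0.02. Ptprb was the one gene of this list with an unadjusted limma p under 0.05. It had ratios of 4.35, 4.46 and 3.95 in day 15 tumors 303, 313 and 318, against 3.88, 3.29 and 3.55 in day 10 tumors 302, 307 and 312. The days did not overlap, and the difference was 0.68 (SE 0.22, limma p 0.0179, adjusted 1.0). Cgn (-0.24), Pard3, a polarity scaffold (-0.30), and Vcl (0.17) followed in order of p.

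Ligands and partners of the surface proteins were counted in the same way. Of 21 genes, 19 were tested, while Gdf2 and Bmp10, the genes of the endoglin ligands BMP9 and BMP10, were not above background in tumor on any array. Against the reference 9 were higher and 4 lower, with a median ratio of 0.90. Cav1, the coat protein of caveolae, had a ratio of 8.09 and Adm, the adrenomedullin gene whose receptor contains RAMP2, had 4.81. Slit3, a guidance ligand, had 6.06 over 5 tumors, tumor 313 being left out by an outlier mark.

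Between the days, 14 of the 19 partners were above 0, with a median of 0.15, and 0 passed the adjusted threshold. Slit3 (0.42), Cav2 (0.32, with its probe in the area of lost signal of tumor 312) and Cav1 (0.69) were among the 4 genes of smallest p. Acvrl1, the type I receptor that acts with endoglin, had the largest difference of this list at 1.02, but its probe lay in the same area, with -0.03 in tumor 312.

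Other endothelial genes, a list of transcription factors, receptors and secreted proteins of the same cells, were counted last. Of 29 tested, 26 were higher than the reference and 0 lower, with a median ratio of 2.44, and Sele, the E-selectin gene, was not above background. The largest ratios were those of Cd93 at 5.76, Mmrn2 at 5.47, Fli1 at 5.44 and Flt1 at 5.20. The probe standing for Fli1 was above background in Cy3 on 0 arrays (another of its probes on 4), and its signal was at least 36.5-fold higher in tumor. The probe of Mmrn2 lay in the area of lost signal, with a ratio of -0.08 in tumor 312 and 5.87 or more in each other tumor. Between the days, 27 of 29 were above 0 (54.9% of all genes), and 0 passed the adjusted threshold. An unadjusted limma p under 0.05 was reached by 9, against 2.44% of all genes as higher at day 15. In 12 all day 15 tumors lay above all day 10 tumors, against 5.06% of all genes. The median difference of the 29 was 0.58, beside 0.57 for the 10 genes. Probes of 7 of the 29 lay in the area of lost signal on the array of day 10 tumor 312. A lowered ratio there raises the difference between the days, as for Mmrn2 at 2.63. Some of these 7 genes were among the 9 and the 12, so the median and both counts are less secure.

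Sox7, an endothelial transcription factor, had the smallest p of that list. Its ratios were 3.17, 3.59 and 3.11 in day 15 tumors 303, 313 and 318, against 2.42, 2.0 and 2.53 in day 10 tumors 302, 307 and 312, which did not overlap, a difference of 0.97 (SE 0.21, limma p 0.0031, adjusted 0.765). Its probe was above background in Cy3 on 0 arrays, and the difference in Cy5 alone was 0.70. S1pr1, the sphingosine-1-phosphate receptor that stabilises VE-cadherin junctions, differed by 0.80 (limma adjusted p 0.88). Vwf, which encodes von Willebrand factor, differed by 0.74 and Cd93 by 0.57 (limma adjusted p 1.0 each). None of the probes of these 4 genes lay in the area of lost signal.

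Genes with a profile over tumors like that of the 10 genes were ranked by Pearson correlation with the mean centred profile, over 6 tumors and without a test. Of 4991 genes above background in all tumors and with an SD of at least 0.3, 148 (2.97%) had a correlation over 0.9. The closest 8 were Tpst1, Sparcl1, Ptprb, Tmem44, Vwa1, Pcdh12, Hey1 and St6galnac2. Their r ran from 0.997 for Tpst1 down to 0.978 for St6galnac2, and Spearman's rho was 1 or 0.943. Without tumors 313 and 303, the farthest from the median, r over the other 4 tumors ran from 0.933 to 0.994. The 8 genes were chosen on all 6 tumors, these 4 included, so a high r there follows in part from the choice. Ptprb was the one gene among them that the other lists held. The 6 points share their arrays, slides and normalization.

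Markers of other cells that use some of the 10 genes were counted in the same arrays. Of 10 platelet and megakaryocyte markers, 6 were tested against the reference, of which 2 were higher and 1 lower. Gp5 and Gp6 were not above background in tumor on any array, and Tubb1 had no probe under that name. Their median ratio was 0.94, 0.90 and 0.22 in day 15 tumors 303, 313 and 318, against 0.63, 0.73 and 0.30 in day 10 tumors 302, 307 and 312. Their summed Cy5 signal ran from 31795 to 156000 at day 15, against 67291 to 86982 at day 10. The marker with the largest difference between the days was Treml1, at 0.86 (limma adjusted p 1.0). Of 6 progenitor markers 4 were tested, and Kit, the stem cell factor receptor gene, had the largest difference at 1.04, with its probe in the area of lost signal. The summed Cy5 signal of the progenitor markers ran from 1441 to 4086 at day 15, against 1385 to 1816 at day 10. The part of platelets or progenitors in the signal of Pecam1, Esam and Cd34 was not tested.

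Tissue around the vessels was read through further marker lists. Of 10 pericyte and smooth muscle markers, 8 were above 0 between the days, against 54.9% of all genes, with a median difference of 0.74. All day 15 tumors lay above all day 10 tumors for 7 of these 10 markers, against 5.06% of all genes. The median ratio of the 10 markers was 3.25, 3.67 and 2.97 in day 15 tumors 303, 313 and 318, against 3.04, 2.13 and 2.74 in day 10 tumors 302, 307 and 312. Their summed Cy5 signal ran from 62127 to 86578 at day 15, against 37570 to 59385 at day 10. Cnn1, calponin of smooth muscle, had the largest difference, at 2.5 (limma adjusted p 1.0).

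Of 6 adipocyte markers, 5 were tested and all were above 0 between the days, with a median difference of 1.77. This median is the value of Adipoq, whose probe lay in the area of lost signal on the array of tumor 312. Adipoq had -0.02 in tumor 312, against 3.53 and 4.14 in day 10 tumors 302 and 307, so the median is less secure. The median ratio of the adipocyte markers was 5.53, 5.55 and 1.24 in day 15 tumors 303, 313 and 318, against 3.53, 3.07 and 0.09 in day 10 tumors 302, 307 and 312. Their summed Cy5 signal ran from 2174 to 618391 at day 15, against 73966 to 107877 at day 10, the lowest sum being that of tumor 318, where Fabp4 was left out by an outlier mark. Plin1, perilipin of lipid droplets, differed by 2.68 (limma adjusted p 1.0). Tumors 303 and 313, with the highest adipocyte values, were also those with the highest values of the 10 genes. Tumor 318 had low adipocyte values. It lay above every day 10 tumor for Cdh5 (on the brighter probe), Cldn5, Esam, Emcn, Robo4 and Plvap. For Pecam1, Cd34, Ramp2 and Eng it lay within the range of the day 10 tumors. Its gap to tumor 302 was narrow for Robo4 (4.55 against 4.52) and Plvap (3.50 against 3.46).

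All 7 skeletal muscle markers had every day 15 tumor below every day 10 tumor, as did 3.79% of all genes, and 5 of them passed the adjusted threshold, with Myh4 at -4.75 (limma adjusted p 0.00161). Their summed Cy5 signal ran from 780 to 1896 at day 15, against 26209 to 223368 at day 10. The median of 8 hepatoma markers was 2.49, -2.31 and 3.1 in day 15 tumors 303, 313 and 318, against 2.47, 2.25 and 2.96 in day 10 tumors 302, 307 and 312. Their summed Cy5 signal ran from 104044 to 1303925 at day 15, against 972401 to 1271135 at day 10, tumor 313 being the lowest. Tumor 313, with the lowest hepatoma values, held the highest ratio for 7 of the 10 endothelial genes. The part of the share of adipose tissue, muscle, pericytes or hepatoma cells in the differences of the 10 genes was not tested.

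**Figure D4:**
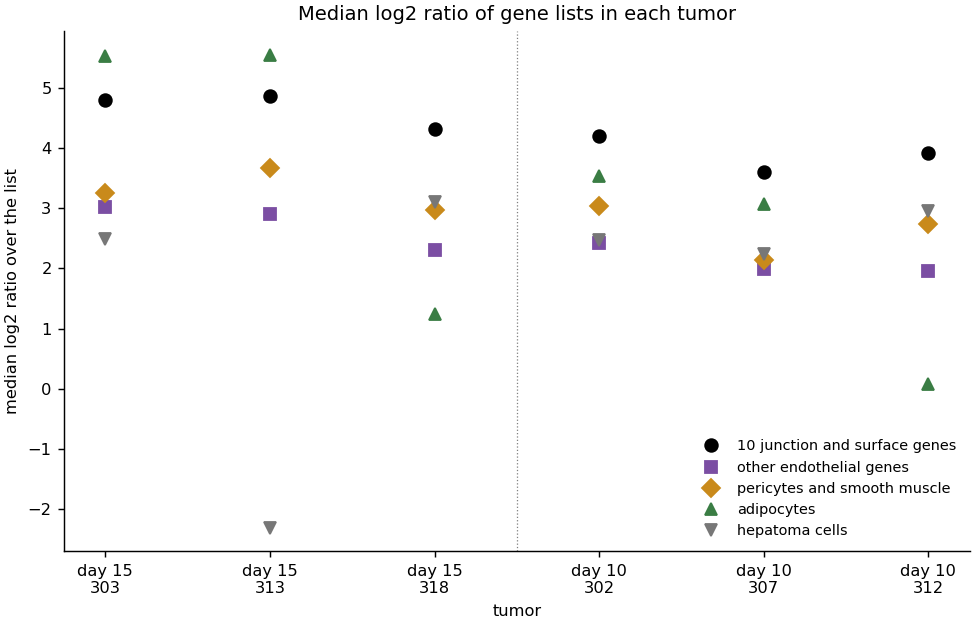
Median log2 ratio of tumor over reference is plotted for the 10 genes and for marker lists of other cell types in each tumor, day 15 tumors left of day 10 tumors. The medians of the 10 genes and of the other endothelial genes are highest in tumors 303 and 313, the adipocyte median is lowest in tumors 318 (1.24) and 312 (0.09), and the hepatoma median is lowest in tumor 313 (-2.31). The probe of the adipocyte gene Adipoq lay in the area of lost signal on the array of tumor 312.

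Among the remaining marker lists, 9 of 9 fibroblast genes, 11 of 12 macrophage and monocyte genes, 6 of 7 leukocyte genes and 4 of 4 erythroid genes were above 0 between the days, and 1 of 4 lymphatic endothelial genes was. Their median differences were 0.52 for fibroblast, 0.14 for macrophage and monocyte, 0.32 for leukocyte, 0.55 for erythroid and -0.14 for lymphatic genes, and 0 of these genes passed the adjusted limma threshold. Alas2, the erythroid enzyme of heme synthesis, had the largest difference of its list, at 1.17 (limma adjusted p 0.436). All 4 erythroid genes tested had every day 15 tumor above every day 10 tumor, as did 5.06% of all genes. Lum, the matrix proteoglycan lumican of fibroblasts, differed by 1.59 (limma adjusted p 1.0).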

How the data were processed

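RNA of 6 tumors and a reference was measured on 2-colour Agilent arrays, 1 per tumor, with tumor RNA in Cy5 and no dye swap, per the labels. The deposited scanner files give the mean intensity of each spot and its local background, made with Agilent Feature Extraction 9.1.3.1 per the file headers and the submitters' processing notes. The deposited value table holds log10 ratios identical to those of the scanner files. The scanner's processed intensity, used as an alternative, was background-subtracted and dye-normalized, per the file headers. Each array held 45018 spots, 1639 of them controls, and 52.4% to 58.5% of non-control spots were well above background in Cy5. The limited number of arrays sets the precision.

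Intensities were background-corrected (normexp, offset 50) and ratios normalized by loess within arrays in limma 3.58.1 under R 4.3.3, with control and outlier spots at weight 0 and outlier spots then left out. Spots of a probe were averaged, and the brightest tested probe stood for a gene. Probes well above background on at least 3 of 6 arrays entered the fits (in either dye against the reference, in Cy5 between the days, in Cy3 for the reference channel alone), fitted 2-sided by lmFit and eBayes, and p-values were adjusted over all probes tested (Benjamini-Hochberg, threshold 0.05). The test against the reference leaves out the spread between blood samples. Bounds set the tumor mean against, per array, the higher of the probe's own Cy3 signal and the lowest Cy3 signal well above background, after loess and Aquantile scaling, and are open to dye bias. The scripts were tested on simulated data. Probe names came from RefSeq (GRCm38.p6) through the accession (23374 of 41174 probes), a present symbol (6733) or a synonym (2919), and 8148 kept the file's name. The array files name no build, so no coordinates of probes are given.

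The 10 genes, the gene lists and the tests were chosen with earlier results of these data known. Named are all 10 genes, the 4 of smallest p between the days and the 4 of largest absolute ratio in each partner and endothelial list, the marker of largest difference in the marker lists described, and the 8 genes of most similar profile. One gene that this rule names among the partners of the surface proteins is not reported here. Genes named only to say that they were not above background, lacked a probe or a spot fall outside this rule. Alternatives were other background corrections and normalizations, filters on dim probes, the mean of a gene's probes, the area of lost signal (13.87% of spots) on the array of tumor 312 left out, each tumor left out, Cy5 alone and the slide position as a block.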

Additional observations from a re-analysis of the deposited data

How the results depend on the processing

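The count of 9 of 10 genes higher than the reference held under all 14 alternatives, and the count of 0 genes past the adjusted threshold between the days under all 16, the Cy3 count of 0 under the 1 tried. Of 300 results for single genes under alternatives, 296 kept their direction and their call, though Esam, never called, was at 0.19 against the reference with the scanner's processed signals and with the value table. Part of this agreement was fixed in advance, since the filters on dim probes and the position block leave a gene's difference between the days as it was. The 4 exceptions fell under median centring without loess, where Esam stood at -0.31 against the reference, and at -0.010 between the days, with Cd34 at -0.030 and Ramp2 at -0.10. With tumors left out in turn, the genes called higher than the reference stayed at 9, those past the adjusted threshold between the days at 0, and the median difference between the days lay between 0.47 and 0.71. Scanner processed signals and the authors' value table gave 0.41, with 4 genes at an unadjusted p under 0.05 (2.96% and 2.97% of all genes). These were Cdh5, Cldn5, Robo4 and Plvap. Emcn was at 0.78 in both settings (SE 0.42, limma p 0.112), and its days then overlapped. Pecam1 was at 0.23 in both (limma p 0.248). Genes with all day 15 tumors above all day 10 tumors numbered 9 without tumor 318, 2 in Cy5 alone and 0 after median centring, in place of 5. The share of all genes was not computed for these 3 counts, and with a tumor left out such a separation is easier to reach. The count of 9 is therefore not read as a result about these genes. The causes were not tested.

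No paired analysis was possible because the tumor numbers are not shared between the days and no label pairs the tumors. The positions on the slides, set against each other and used as a block, pair arrays and not animals. Without a dye swap a probe's dye bias stays in its ratio, slide and day cannot be told apart, and 3 tumors per day leave intervals that include both no difference and a difference of over 0.7 on the log2 scale for Esam, Eng, Cd34 and Ramp2. Cy3 signal not well above background limits the size of the ratio of Cdh5 to a bound, and leaves those of Emcn, Cldn5 and Pecam1 less secure.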
